A study of Homo sapiens with 3 samples.

Results

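The cell cycle and apoptosis regulators are 37 genes whose names were looked up in the list of peaks of wild-type MECOM. Of these, 8 were assigned a peak there, with 10 peaks in all among 3462. They were the cyclin genes CCND1, CCND2 and CCND3, the inhibitor gene CDKN2B, the pocket protein gene RBL1, and the BCL2 family genes MCL1, BBC3 and BCL2L11. A gene counted as having a peak where the deposited annotation gave its symbol as the nearest gene, and 29 genes had none. That share, 21.6% of 37 genes, stood beside 9.94% of 20037 protein-coding genes assigned a peak.

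The peaks came from chromatin immunoprecipitation with sequencing (ChIP-seq) of MECOM, a zinc finger transcription factor also called EVI1 whose raised expression marks some myeloid leukaemias. It was carried out in HEK293T, a line of human embryonic kidney cells. The library used here came from cells given wild-type MECOM with an AM tag, a peptide that the precipitating antibody binds. The series has 1 further library from cells given tagged R750W MECOM and 1 from cells given the empty pMYS-IG vector, all in the same line, whose peaks were not analysed here. With 1 list from 1 library, no difference between groups and no replicate error was available. The introduced MECOM was not the endogenous protein of a blood cell, and HEK293T cells carry the SV40 large T antigen, which binds retinoblastoma proteins and p53. The MECOM gene itself held the highest peak of the list, at 669-fold, which does not show which form of MECOM the cells were given. DNA of the introduced construct and binding within the gene cannot be told apart there.

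D-type cyclins join the kinases CDK4 and CDK6 to phosphorylate retinoblastoma family proteins, which releases E2F factors and lets a cell enter S phase, and the INK4 and CIP/KIP proteins inhibit these kinases. The decision between survival and apoptosis at the mitochondrion rests on the BCL2 family. BH3-only proteins such as PUMA and BIM neutralise anti-apoptotic members such as MCL1, which frees BAX and BAK1 to permeabilise the outer membrane and caspases to act. By role, peaks were assigned to 3 of 7 cyclin genes, 2 of 4 BH3-only genes, 1 of 7 kinase inhibitor genes, 1 of 3 retinoblastoma family genes and 1 of 3 anti-apoptotic genes. None of the 4 cyclin-dependent kinase genes, 4 E2F genes, 2 pro-apoptotic effector genes or 2 initiator caspase genes was assigned one, nor was MDM2, which encodes the ubiquitin ligase of p53. Over all 20037 protein-coding genes, the share assigned a peak was 9.94%. The groups are small, so these counts, those of no peak included, describe the list and do not rank the roles.

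Peak positions are those of the hg38 build, and the fold enrichment of a peak is the authors' ratio of fragments at its highest point to the local background. Each interval below is an exact 95% Poisson interval of the fragments, takes the background as fixed, and covers counting error only. The 10 peaks ran from 3.31-fold to 6.14-fold with a median of 3.97, against a median of 4.82 over all 3462 peaks. Only the peaks of BBC3 and BCL2L11 lay above that median, 20% of the 10 against 49.0% of all peaks. None of the 10 intervals lay wholly above or wholly below 4.82. Over all 3462 peaks, 189 intervals lay wholly above it and 162 wholly below, so most peaks of the list, these 10 among them, could not be told from its median at this depth. The median peak of the regulators rested on 17.5 fragments, against 18 for all peaks, and on a background of 3.56 fragments, against 2.92 for all peaks.

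**Figure D1:**
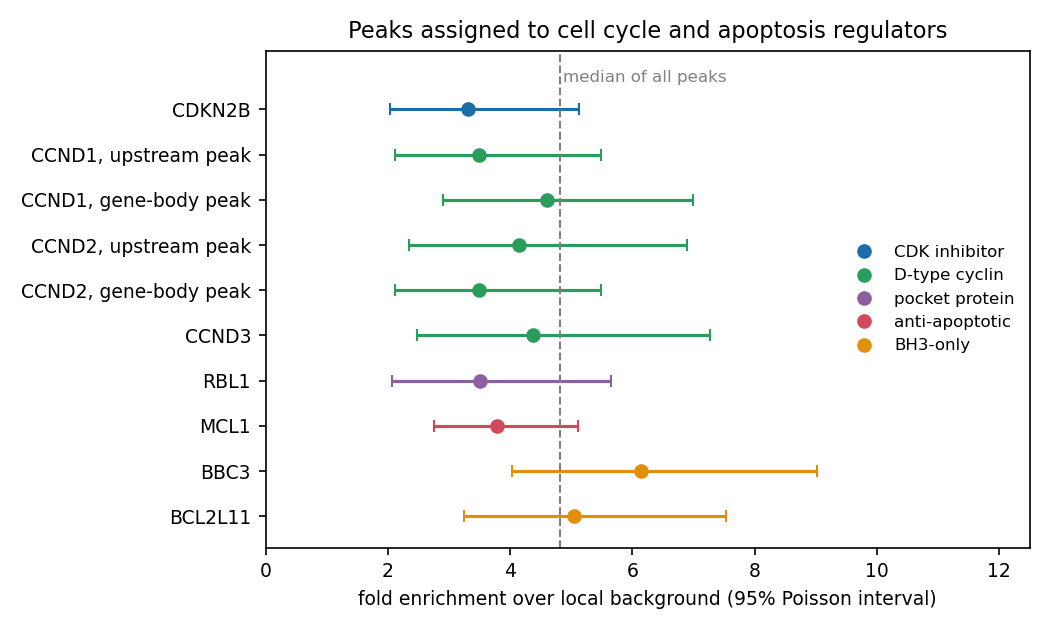
Fold enrichment of the 10 peaks assigned to cell cycle and apoptosis regulators (horizontal axis, with exact 95% Poisson intervals as bars), coloured by the role of the gene; the dashed line is the median of all 3462 peaks, 4.82. BBC3 is highest at 6.14, CDKN2B lowest at 3.31, and every interval crosses the line.

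Of the 31 regulators with an entry in the RefSeq promoter table (GRCh38.p14, 250 bases before to 50 after a gene start), 4 had a peak over such a window, 12.9% of 31 against 6.97% of 15843 protein-coding genes. These were RBL1, CDKN2A, CCND3 and CDKN2B. CCND1, CCND2 and MCL1, also assigned a peak, had no entry there and were not counted. The MCL1 peak lay 27 bp and the nearer CCND2 peak 40 bp inside the RefSeq span, counted from the gene start. The 250 bases before the start of RBL1, CDKN2A and CCND3 are shown because a peak reached them. Each is read 5′ to 3′ on the minus strand on which the gene lies, with capitals for the bases inside the peak.
RBL1, chr20:37095998-37096247: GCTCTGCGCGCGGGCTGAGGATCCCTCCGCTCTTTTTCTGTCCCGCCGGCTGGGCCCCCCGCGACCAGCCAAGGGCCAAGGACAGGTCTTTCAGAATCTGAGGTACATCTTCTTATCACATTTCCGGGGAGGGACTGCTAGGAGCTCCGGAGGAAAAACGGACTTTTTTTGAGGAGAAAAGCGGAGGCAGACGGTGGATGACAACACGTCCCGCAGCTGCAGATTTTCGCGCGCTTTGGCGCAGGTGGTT
CDKN2A, chr9:21995325-21995574: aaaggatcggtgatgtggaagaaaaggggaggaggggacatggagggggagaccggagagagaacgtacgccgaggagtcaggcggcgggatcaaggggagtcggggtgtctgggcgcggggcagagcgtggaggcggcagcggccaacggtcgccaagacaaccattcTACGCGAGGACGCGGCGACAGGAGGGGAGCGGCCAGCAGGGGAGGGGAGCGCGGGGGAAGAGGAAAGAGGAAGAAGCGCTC
CCND3, chr6:42048689-42048938: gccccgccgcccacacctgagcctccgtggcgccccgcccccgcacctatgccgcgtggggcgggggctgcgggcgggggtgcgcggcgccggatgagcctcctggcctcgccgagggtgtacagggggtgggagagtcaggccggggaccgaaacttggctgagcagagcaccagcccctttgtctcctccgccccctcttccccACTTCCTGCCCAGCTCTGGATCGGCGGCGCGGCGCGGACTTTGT
The RBL1 peak covered all 250 bases, the CDKN2A peak the 81 nearest the start and the CCND3 peak the 44 nearest the start. At CDKN2B the peak stopped short of the start and covered 16 bases of the window, all downstream of it.

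Among 10 motifs searched on both strands, the ETS-like core AGGAAG lay inside the peak in 2 of these 3 sequences. In CDKN2A it was the run AGGAAG from 14 to 9 bases before the start, and in CCND3 its reverse complement CTTCCT from 43 to 38 bases before the start. No other motif of the 10 was found in the 3 sequences, which says only that those exact letters are not there. Variant forms of a site were not searched. The RBL1 sequence holds TTTCGCGC and TTTGGCGC, which are close to the E2F letters given below. It also holds TTATCA, close to the reverse complement of the GATA letters given below. Whether these letters act as sites was not tested. The counts that follow are of genes, and a gene with several RefSeq windows counted where any of them held the motif, so the window counted for CDKN2A or CCND3 need not be the one shown. Regulators with and without a peak over a window both enter these counts. Of the 31 regulators, AGGAAG was present in 13 (41.9%), against 39.8% of all 15843 genes with a window. The GATA site AGATAA was present in 1 (3.23%), CASP8, against 10.2% of all. The 2 longer EVI1 sites, GAAGATGAG and ACAAGATA, were in none of the 31, against 0.379% and 0.385% of all. The CCAAT box (CCAAT) was in 17 genes (54.8%, against 42.1%), the E-box CACGTG in 8 (25.8%, against 10.9%) and the AP-1 site TGANTCA in 4 (12.9%, against 8.04%). The cell cycle element TTTGAA was in 3 (9.68%, against 15.8%) and the p53 half-site core ACATGT in none (against 4.08%). The E2F letters TTTCCCGC, 1 form of that site, were in 1 (3.23%, against 2.65%). All these counts are of the exact letters and leave out variant forms, so they are not counts of every E2F or GATA site. The window with the most G and C of each gene held a median of 67.3% over the 31 regulators, against 64.7% over all 15843 genes, and 67.7% over the 1104 genes with a peak there. The part of base composition in the motif shares was not tested.

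The INK4 locus on chromosome 9 carried the peaks closest to kinase inhibitor genes. CDKN2B encodes p15INK4B, an inhibitor of CDK4 and CDK6 induced by TGF-beta, and had a peak at chr9:22008985-22009271, inside the gene and 92 bp from its annotated start. It was the lowest of the 10, at 3.31-fold (2.03 to 5.13), with 18 fragments over a background of 4.74. This peak also lay within the RefSeq span of CDKN2B-AS1, a non-coding gene described below. CDKN2A, which encodes both p16INK4A and the p53 activator ARF from separate starts, was assigned no peak by the nearest-gene rule. A peak at chr9:21994677-21995405 nevertheless spanned its outer start, 1 of 2 RefSeq starts of the gene, in the sequence shown above. The annotation gave that peak to CDKN2B-AS1, an antisense non-coding gene that starts 101 bp into the peak by the deposited annotation and runs the opposite way. It reached 5.05-fold (3.34 to 7.36), with 25 fragments over a background of 4.15 and a −log10 q of 7.81. Its interval overlapped that of the CDKN2B peak 13579 bp away, and their heights were not tested against each other. A peak over a shared promoter region cannot be given to one of the genes that start there.

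**Figure D2:**
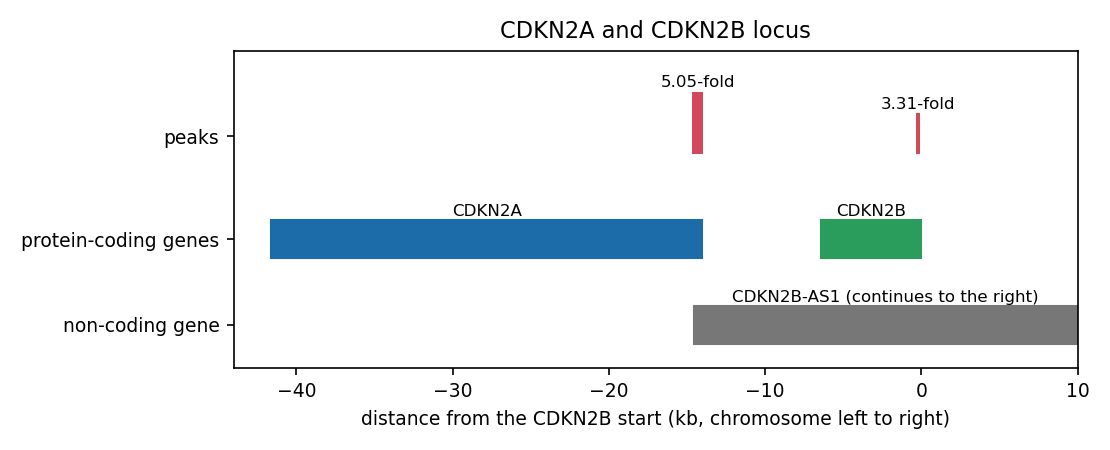
Map of the CDKN2A and CDKN2B locus, with distance from the CDKN2B start in kb on the horizontal axis; bars mark the RefSeq spans of the 2 protein-coding genes and of CDKN2B-AS1, and the heights of the red bars are proportional to fold enrichment. The 5.05-fold peak sits where the right end of CDKN2A and the left end of CDKN2B-AS1 overlap, and the 3.31-fold peak sits at the right end of CDKN2B.

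All 3 D-type cyclin genes had a peak, 5 peaks together, and each of CCND1 and CCND2 had one upstream of its start and one in the gene. CCND1, which encodes cyclin D1, had a peak at chr11:69642911-69643489, 1824 bp inside the gene, of 4.61-fold (2.90 to 7.0) with 20 fragments over 3.56. Its upstream peak at chr11:69638841-69639329 ended 1758 bp before the start and reached 3.49-fold (2.12 to 5.48) with 17 fragments over 4.15. The intervals overlapped, and these peaks were not tested against each other. They lay 3581 bp apart on either side of the start, and neither covered it.

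CCND2, which encodes cyclin D2, had a gene-body peak at chr12:4273802-4274590 that began 30 bp inside the gene, and an upstream peak at chr12:4269184-4270028 that ended 3744 bp before it. The gene-body peak had 17 fragments over 4.15, the same pair of values as the upstream peak of CCND1, and so the same 3.49-fold. The upstream peak reached 4.15-fold (2.35 to 6.89) from 13 fragments over 2.37. Both peaks also lay within the RefSeq span of CCND2-AS1, a non-coding gene that runs across the CCND2 start. CCND3, which encodes cyclin D3, had a single peak at chr6:42048442-42048732 of 4.38-fold (2.48 to 7.27), with 13 fragments over 2.20. It lay 1625 bp inside the gene by the deposited annotation, and spanned 1 of the 3 CCND3 starts in the RefSeq promoter table. The cyclin genes of later phases, CCNE1, CCNE2, CCNA2 and CCNB1, had no assigned peak. Their nearest peaks lay 45922 bp (CCNA2) to 1264291 bp (CCNE2) from the gene.

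RBL1 encodes p107, a retinoblastoma relative that holds E2F4 and E2F5 in repressor complexes. Its peak at chr20:37095809-37096249 was the only one of the 10 to cross the start that the deposited annotation gives its gene, at 3.51-fold (2.06 to 5.65) with 15 fragments over 3.56. With a −log10 q of 2.58 it was also the least certain of the 10 by the authors' q, and the lowest −log10 q of the whole list was 2.0. RB1 and RBL2, the other pocket protein genes, had their nearest peaks 494379 and 334362 bp away.

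MCL1 encodes an anti-apoptotic protein of short half-life. Its peak at chr1:150578987-150579583 lay inside the gene, 155 bp from the deposited start and 27 bp from the end of the RefSeq span where the gene begins. It held the most fragments of the 10 peaks, 41, over the highest background, 10.1. Its place in the list therefore depended on the measure. By fold, 3.79 (2.75 to 5.11), it stood at percentile 17.4 of all peaks, and by −log10 q, 8.68, at percentile 84.1. By fragments it stood at percentile 98.2 and by background at percentile 98.5. BCL2 and BCL2L1, the other anti-apoptotic genes of the list, had their nearest peaks 3982740 and 760280 bp away.

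**Figure D3:**
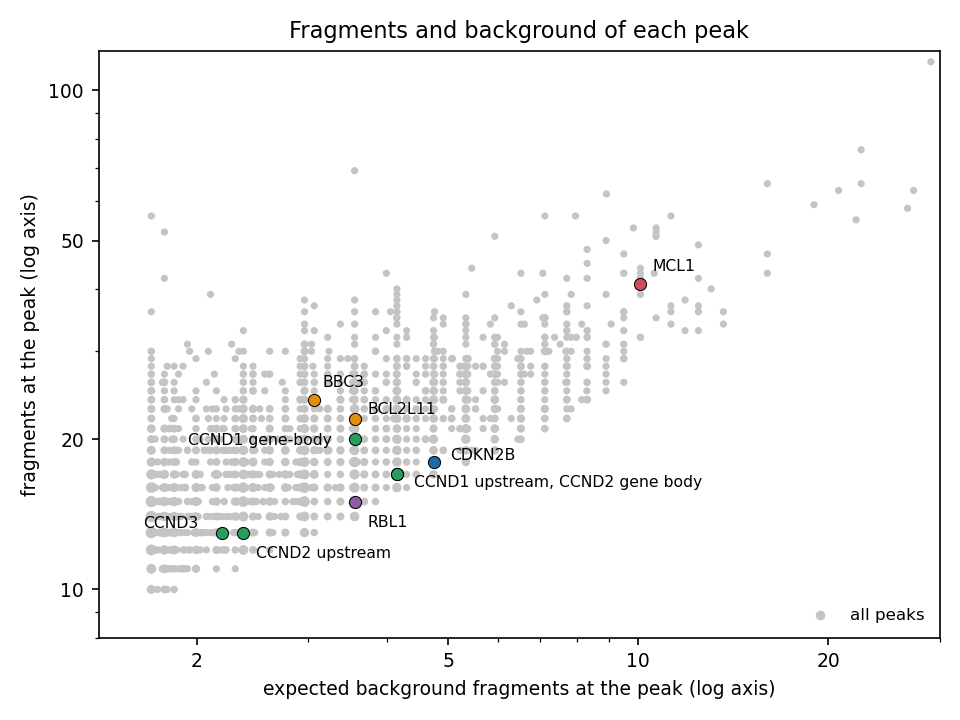
Fragments at the highest point of each peak (vertical, log axis) against its expected background (horizontal, log axis); grey points are all peaks of the list but for the 20 that lie outside the axes, larger where peaks share values, and coloured points are the regulators. MCL1 stands apart at 41 fragments over 10.1, and the other 9 regulator peaks lie between 13 and 24 fragments over 2.20 to 4.74.

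The 2 highest peaks belonged to BH3-only genes. BBC3, which encodes PUMA, a p53-induced killer protein, was assigned a peak at chr19:47243542-47244404 of 6.14-fold (4.02 to 9.02), with 24 fragments over 3.07, at percentile 83.7 by fold. It was also the most distant of the 10, ending 10776 bp upstream of the BBC3 start. The peak lay on LOC124904731, a RefSeq gene without a given name, and 12121 bp from CCDC9 on its other side, against 10682 bp from the RefSeq span of BBC3. BCL2L11, which encodes BIM, had a peak at chr2:111122556-111122888 of 5.05-fold (3.24 to 7.53), with 22 fragments over 3.56. It lay inside the gene, 3178 bp from the deposited start and 1642 bp from the start of the RefSeq span. PMAIP1 (NOXA) and BID, the other BH3-only genes, had their nearest peaks 759390 and 375329 bp away.

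By the deposited annotation, which uses a single start for each gene, 6 of the 10 peaks lay inside the gene, 3 upstream, 1 across the start and none downstream. Of all 3419 peaks with a gene, 40.4% lay inside, 27.8% upstream, 19.7% across a start and 11.4% downstream. Those that began within 1000 bp of the start numbered 4 of 10 (40%, against 55.7% of all), within 2000 bp 6 of 10 (60%, against 66.6%), and within 10000 bp 9 of 10 (90%, against 81.0%). The exception at the last distance was BBC3. With 10 peaks, of which 4 come in pairs on the same gene, these shares are a description.

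**Figure D4:**
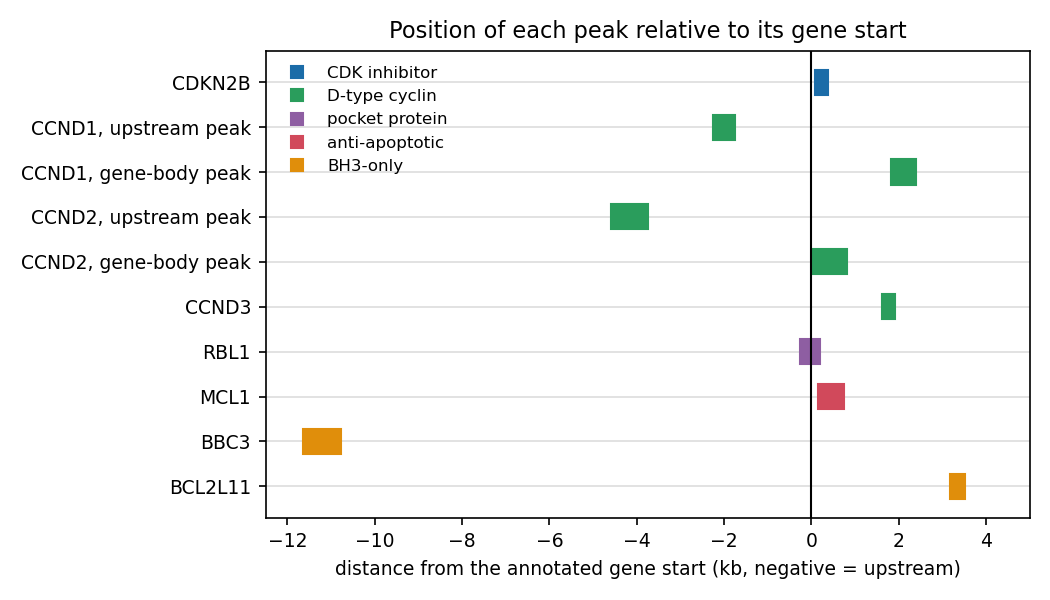
Extent of each of the 10 peaks relative to the start that the deposited annotation gives its gene (horizontal axis, kb, negative upstream; vertical line at the start), coloured by role. RBL1 is the only peak across that start, CCND1 has a peak on each side of it, and BBC3 lies beyond −10.776 kb.

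Among the 29 regulators without an assigned peak, the nearest peak lay a median of 262240 bp from the RefSeq gene span, and 4 had one within 10000 bp. One was CDKN2A, described above. BAX, which encodes the pore-forming effector of apoptosis, had peaks 486 bp and 2122 bp beyond its right end. The nearer, at chr19:48962284-48962680, reached 6.01-fold (3.64 to 9.42) with 17 fragments over 2.0, and the farther 3.79-fold (2.22 to 6.09). Both were assigned to ENSG00000267898, which has no symbol in the table. CDKN1B, which encodes the kinase inhibitor p27, had a peak 3259 bp to its right, across the start of APOLD1 (3.41-fold, 2.01 to 5.49). CDK4 had a peak 1741 bp to its left, within TSPAN31 and assigned to AGAP2 (3.76-fold, 2.08 to 6.35). Left and right here are directions along the chromosome, whatever the strand of the gene, and do not mean upstream or downstream. The kinase inhibitor gene CDKN1A (p21), the best known p53 target of the cell cycle, had its nearest peak 129132 bp away, and MDM2 61793 bp away.

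The number of regulators with a peak changed with the rule, and so did the number over all genes. At a q of at most 1e-05, 4 of 37 were assigned a peak (BBC3, BCL2L11, CCND1 and MCL1), 10.8% against 5.52% of protein-coding genes. Among peaks at or above the median fold, 2 of 37 remained (5.41%, against 5.04%), and across a gene start 1 of 37 (2.70%, against 2.38%). With assigned peaks inside the gene, across its start or within 10000 bp of it, 7 of 37 were counted (18.9%, against 9.48%). When any peak in the RefSeq gene span widened by 1000 bp counted, 9 of 37 had one (24.3%, against 13.7%), and with 10000 bp 11 of 37 (29.7%, against 17%). The first of these wider counts added CDKN2A and BAX, the second also CDK4 and CDKN1B, and both dropped BBC3. The share of regulators was thus about that of all genes for peaks at or above the median fold and for peaks across a start, and above it by the other rules, and no test was made of these shares. Regulators had a median RefSeq length of 13890 bp over 37 genes, against 24115 bp over all 20037 genes and 45678 bp over the 1992 genes assigned a peak.

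**Figure D5:**
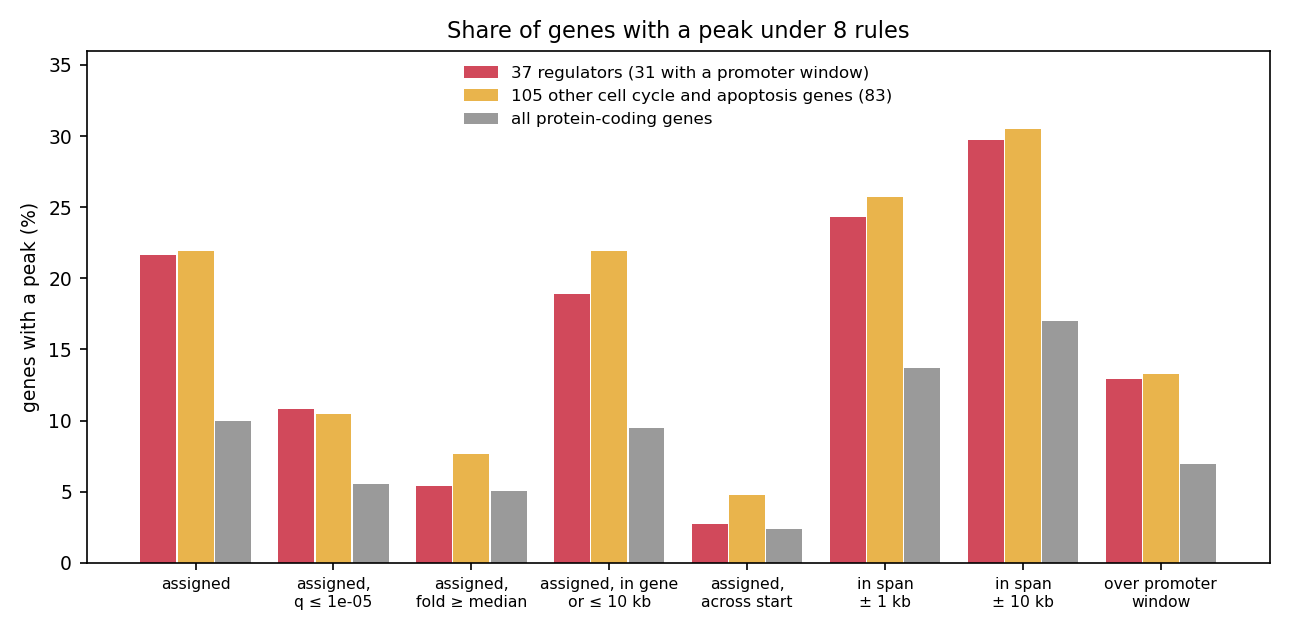
Share of genes with a peak (vertical axis, percent) under 8 rules, for the 37 regulators, for 105 other cell cycle and apoptosis genes and for all protein-coding genes; the last rule uses only the genes with a promoter window. Regulators reach 21.6% by assignment, against 9.94% of all genes, and 5.41% against 5.04% among peaks at or above the median fold.

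Other genes of the same pathways were taken from 7 lists of 105 genes, and 23 of them were assigned a peak (21.9%, against the 9.94% of all protein-coding genes), with 25 peaks. Their median fold was 4.29, against 4.82 for all peaks. By list, peaks were assigned to 8 of 20 genes of the p53 response and checkpoint and to 5 of 12 genes of death receptors and their adaptors. The E2F partner and DREAM list had 3 of 13 and the further BCL2 family 2 of 10. Cyclins, kinases and their regulators had 2 of 19, and replication licensing and mitosis 2 of 18. Caspases, the apoptosome and inhibitors of apoptosis had 1 of 13.

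By fold, the 3 highest of these 25 peaks belonged to the death receptor list. TNFRSF1A, which encodes the main receptor for tumour necrosis factor, had 3 peaks, of 6.66-fold (4.24 to 10.0), 6.30-fold (3.76 to 10.0) across its start, and 4.04-fold. FAS, which encodes the Fas death receptor, had a peak of 6.12-fold (3.65 to 9.71) across its start. TRADD, an adaptor of TNFRSF1A, had one 244 bp upstream (5.27-fold, 3.42 to 7.79), and CFLAR, which encodes an inhibitor of caspase-8 activation, one inside the gene (4.23-fold). The fifth gene of this list with a peak, the kinase gene RIPK1, was among the lowest, at 3.18-fold (2.02 to 4.78) across its start, and is named here after its value was seen. In the p53 and checkpoint list, RRM2B, a ribonucleotide reductase subunit, reached 5.34-fold (3.23 to 8.37), and the checkpoint kinase gene ATR 4.73-fold. MDM4, the MDM2 relative, had a peak ending 7993 bp upstream (4.63-fold), and SESN1, a stress-response gene induced by p53, reached 4.08-fold.

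Of the replication genes, ORC1, an origin recognition subunit, reached 5.56-fold (3.21 to 9.08) and MCM7, a helicase subunit, 5.54-fold (3.44 to 8.49) across its start. The BH3-only gene HRK had a peak across its start (5.13-fold, 3.45 to 7.39) and BIK one that began 6 bp inside (4.29-fold). CDC25B, a phosphatase that activates cyclin-dependent kinases, reached 5.04-fold, 8941 bp into the gene. The cyclin G2 gene CCNG2 reached 4.25-fold. Of the 25 peaks, 15 (60%) began within 1000 bp of the gene start, against 55.7% of all peaks with a gene. The start was crossed by 5 (20%), against 19.7%. None of the 25 intervals lay wholly above 4.82, against 189 of all 3462 peaks. Wholly below it lay 4 of 25 (16%), against 162 of all 3462 peaks (4.68%).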

How the data were processed

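ChIP-seq against the AM tag was carried out in HEK293T cells, per the labels' protocols, with formaldehyde fixation, micrococcal nuclease and sonication, and paired-end sequencing. The submitters' processing notes name hg38, Bowtie2 2.4.2, MACS2 2.1.1.20160309.6 and ChIPseeker 1.18.0, without a role for each. Columns of the deposited table carry no names and were read from their values. The table gives each peak a fold (a ratio of fragments to local background), a −log10 p-value, a −log10 q-value and a score, which are the authors' values, and the nearest Ensembl gene. GEO links the table to none of the samples, and its place in the WT group rests on its name. Neither library depth nor the library behind the background is given in the sources used here.

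Fragments and background were solved from fold and −log10 p for all 3462 peaks, as a whole number n with fold (n + 1)/(background + 1) and the Poisson tail within 0.001, and checked on 500 simulated peaks. Of 2286 symbols in the table, 2252 matched RefSeq (GRCh38.p14), all 37 regulators among them. Intervals are at 95%. No test was made between groups or of the gene lists. Regulators, pathway lists, motifs and rules were chosen with earlier results of these data known. Named genes were every regulator with an assigned peak or one within 10000 bp, and the 15 pathway genes with the highest fold, not all of which are reported here. Exon positions were not used here. Python 3.11.15, pandas 2.3.3, numpy 2.4.6 and scipy 1.17.1 were used.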

Additional observations from a re-analysis of the deposited data

How the results depend on the processing

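The 8 regulators assigned a peak numbered 4 at a q of at most 1e-05, 2 at or above the median fold and 1 across a gene start. The 23 pathway genes likewise numbered 11, 8 and 5, or 10.5%, 7.62% and 4.76% of 105. Over all protein-coding genes the share was 9.94% by assignment, and 5.52%, 5.04% and 2.38% under the same rules. In the 3 settings by distance or gene span the counts were 7, 9 and 11 regulators and 23, 27 and 32 pathway genes, within 1.5 times. The pathway shares were 21.9%, 25.7% and 30.5%, against 9.48%, 13.7% and 17% of all protein-coding genes. The median fold of the 10 peaks, 3.97, became 4.83 with the stricter q and 3.79 within 10000 bp of the start. The 4.83 cannot be set against the 4.82 of all peaks, to which the stricter q was not applied. In place of fold, the median −log10 q was 3.29, against 5.33 for all peaks. Of the 4 peaks that began within 1000 bp of a start, 1 crossed it. With the background set to the median of the list, MCL1 moved to 10.7-fold, the other 9 peaks staying inside their intervals. By −log10 q in place of fold, 2 of the 10 peaks (MCL1 and CCND1 in the gene) changed sides of the middle of the list or moved by 20 percentile points or more, and by fragments 6 of 10. The counts of regulator promoters with AGGAAG were 9, not 13, in the 250 bases before the start alone.

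An alternative chosen after the data were seen added the counting error of the background. Over all peaks, 54.5% of the 3038 backgrounds above the lowest were whole multiples of 0.593 fragments within 0.002, as were those of 8 of the 10 regulator peaks. Taking each step as 1 background fragment, the plain ratio of fragments to background was 4.07 (2.26 to 7.64) for MCL1, 5.62 (2.18 to 17.1) for CCND1 in the gene, and 4.22 (1.55 to 13.3) for RBL1. The intervals are exact binomial ones. They are wider than those with a fixed background, and peaks were picked by the caller for a high ratio. The count of regulators with a peak over a promoter window, also added later, was 4 of the 31 with a window. No paired analysis was possible because only the wild-type list, from a single library, entered the counts. At a median of 17.5 fragments these genes cannot be ranked by their peaks.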
